A study of Mus musculus with 4 samples.

Results

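The Hox genes were described in the trachea of mouse embryos on a C57BL/6 background at embryonic day 16. Members were all genes whose platform symbol was Hoxa, Hoxb, Hoxc or Hoxd followed by a number from 1 to 13, with no filter on level, and this gave 33 genes of 18193 measured by a probe set of 1 gene. Hoxb8 and Hoxd4 were named only together with a second gene and are not among them. Per the labels, 2 samples were wild type and 2 carried an a1H knockout, each genotype with replicates 1 and 2, and each sample was read on 1 Affymetrix array. a1H is taken as the alpha-1H subunit of a T-type calcium channel, encoded by Cacna1h. Whether the samples were separate embryos or pools is not stated in the labels, so p-values cover only the spread among these 4 samples, and that spread may be technical.

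Hox genes encode homeodomain transcription factors that give cells their position along the head to tail axis. In mammals they lie in 4 clusters, and genes at the same place in different clusters, called paralogs, share a number. Low numbers are expressed from the hindbrain and pharynx backwards, and high numbers are largely kept to the hind body, limbs, gut end and genital region. The trachea forms from the foregut and its surrounding mesenchyme, and Hoxa5 is known to be required for its normal development. The comparison with the knockout asks which of these genes differ between genotypes.

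Signals were MAS5 values, an Affymetrix measure of probe set brightness that is not on a log scale, and medians of the arrays ranged from 320 to 459. Signals of different genes were not ranked against each other, because probe sets differ in how brightly they read the same amount of RNA. The ratio of 3' to 5' actin signal, which rises with RNA breakage, was 1.69 and 1.66 in wild type against 1.90 and 1.97 in the labelled knockout. All 12 markers of tracheal epithelium, cartilage and mesenchyme, among them Nkx2-1, Sox2, Sox9 and Tbx4, were above background on all 4 arrays. So were 75.7% of all genes and every measured gene of the skeletal muscle (11), neuron (7), esophagus (5) and thyroid (4) lists. Passing was thus not particular to the trachea. Cacna1h was not lower where it was labelled as knocked out: its brighter probe set read 630 and 538 in wild type against 981 and 631 in the labelled knockout. A probe set outside the deleted part checks nothing, and the position of the deletion was not known here, so every direction below rests on the labels. The small number of arrays, 2 per genotype, limits the precision, and the smallest p of a two-sided exact permutation test in this design is 0.333.

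Sequence just upstream of 4 members is shown because these genes span the pattern described below. Hoxa3 and Hoxa5 are low-numbered genes, and Hoxd8 and Hoxd9 are higher-numbered genes. All 4 genes were above background on all 4 arrays and had a lower mean in the labelled knockout, only slightly so in Hoxd8 and Hoxd9. Each run is the 250 bases before the gene's start in RefSeq, 5′ to 3′ on the gene's strand, and capitals mark CG dinucleotides.

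Hoxa3, GRCm38.p6, chr6:52213068-52213317, minus strand: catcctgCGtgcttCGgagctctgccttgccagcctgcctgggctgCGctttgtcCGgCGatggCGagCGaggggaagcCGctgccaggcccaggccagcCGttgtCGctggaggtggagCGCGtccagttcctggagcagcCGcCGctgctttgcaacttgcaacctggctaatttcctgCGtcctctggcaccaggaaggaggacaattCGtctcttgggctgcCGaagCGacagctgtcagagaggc

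Hoxa5, GRCm38.p6, chr6:52204588-52204837, minus strand: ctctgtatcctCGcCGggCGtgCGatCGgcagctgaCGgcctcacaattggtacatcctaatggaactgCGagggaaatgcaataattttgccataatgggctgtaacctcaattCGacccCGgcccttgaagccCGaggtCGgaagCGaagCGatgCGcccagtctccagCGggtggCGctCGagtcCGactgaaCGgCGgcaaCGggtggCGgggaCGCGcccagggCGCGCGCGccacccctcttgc

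Hoxd8, GRCm38.p6, chr2:74704365-74704614, plus strand: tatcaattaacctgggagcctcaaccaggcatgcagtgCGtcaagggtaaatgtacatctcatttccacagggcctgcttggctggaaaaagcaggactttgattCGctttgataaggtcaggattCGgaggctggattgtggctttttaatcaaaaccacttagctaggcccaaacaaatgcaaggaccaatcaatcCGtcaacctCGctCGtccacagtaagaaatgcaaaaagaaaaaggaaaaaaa

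Hoxd9, GRCm38.p6, chr2:74697513-74697762, plus strand: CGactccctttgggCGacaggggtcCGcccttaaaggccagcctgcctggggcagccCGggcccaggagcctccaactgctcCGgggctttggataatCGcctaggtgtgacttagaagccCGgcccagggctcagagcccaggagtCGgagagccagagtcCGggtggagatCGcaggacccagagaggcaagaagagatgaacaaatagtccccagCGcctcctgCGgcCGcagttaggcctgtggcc

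These windows held 18 CG dinucleotides in Hoxa3, 28 in Hoxa5, 6 in Hoxd8 and 13 in Hoxd9. Over the 21 windows that matched members, the median was 13, and over all 32851 windows of the table it was 6. The letters CCAAT, searched on both strands, were present in 11 of the 21 windows, Hoxa5 and Hoxd8 among them, against 33.8% of all windows. The letters TGATNNAT, a form bound by Hox and Pbx proteins together, were present in 3 of the 21, those of Hoxa2, Hoxb1 and 1 of 2 windows of Hoxd11, against 7.68% of all windows. Such matches are descriptions of the sequence and not binding sites.

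Low-numbered Hox genes were the ones read above background in the trachea. The background was taken as the 95th percentile of 44 probe sets of olfactory receptors, which are largely restricted to the nose. It was 136 and 90.2 on the wild-type arrays and 57.5 and 81.2 on the labelled knockout arrays, so it was easier to pass on the latter. Above it on all 4 arrays were 14 of 33 members, or 42.4%, against 75.7% of all genes. By number, 11 of 13 members numbered 1 to 5 were above it, as were 3 of 10 numbered 6 to 9 and 0 of 10 numbered 10 to 13. The 3 in the middle group were Hoxc6, Hoxd8 and Hoxd9. Hoxc5 and Hoxc6 lost their place with vomeronasal receptors as the reference and when a gene's probe sets were averaged. The 2 low-numbered members that were not above it everywhere were Hoxb1 and Hoxd1. By cluster the counts were 4 of 9 in cluster A, 4 of 9 in B, 3 of 7 in C and 3 of 8 in D.

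**Figure D1:**
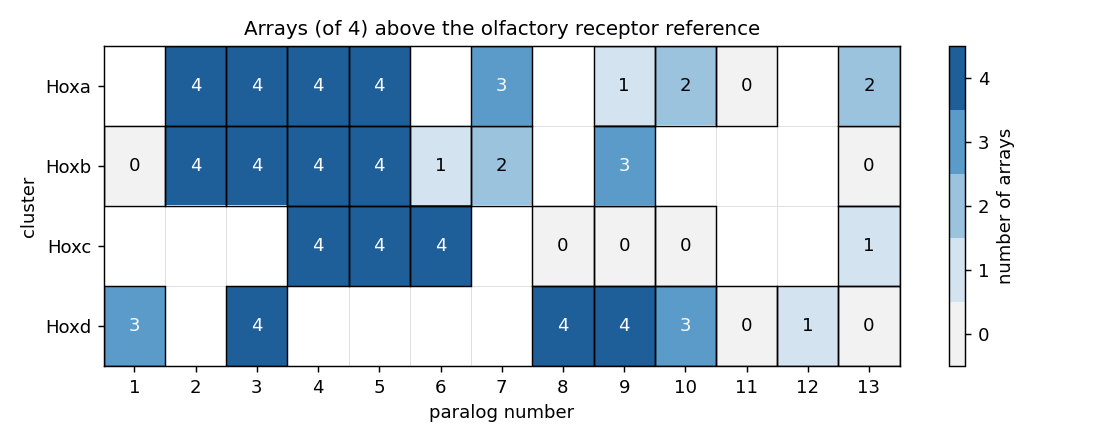
Each framed cell is a Hox gene by cluster (rows) and paralog number (columns), and the number and colour give on how many of the 4 arrays its brightest probe set exceeded the olfactory receptor reference. Cells without a frame hold no member. Every member numbered 2 to 5 is at 4, as are Hoxc6, Hoxd8 and Hoxd9 among higher numbers.

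Paralogs numbered 1 to 3 act from the hindbrain and pharyngeal arches backwards. Hoxb1, a gene of the hindbrain, read 50.9 and 25.9 in wild type against 47.2 and 48.1 in the labelled knockout, below background on all 4 arrays. Hoxd1 read 80.8, 95.6, 67.5 and 195 in the same order, and only its value on wild-type replicate 1 was below background. Hoxa2, which patterns the second pharyngeal arch, read 1819 and 1144 in wild type against 1221 and 1204 in the labelled knockout. Wild-type replicate 1 was the high array, and the other wild-type array was below both labelled knockout arrays. Hoxb2, a hindbrain gene, showed the same arrangement at 498 and 246 against 264 and 292.

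Hoxa3 is required for the thymus and parathyroid and for cartilages of the throat. It read 7660 and 6126 in wild type against 5881 and 4163 in the labelled knockout, so the groups did not overlap and labelled knockout replicate 2 was the lowest. The means were 6893 ± 1084 and 5022 ± 1215 (SD, n = 2), a log2 difference (labelled knockout minus wild type, on log2(signal + 16)) of -0.47 with an SE of 0.23. With 1 array left out it ranged from -0.72 to -0.22. Hoxb3, its paralog, read 7059 and 5527 against 6036 and 4984, with overlap and a log2 difference of -0.19. Hoxd3, which patterns the upper neck vertebrae, read 1079 and 677 against 517 and 929, with overlap and within-number differences of -1.04 for replicate 1 and 0.45 for replicate 2. Hoxa3 spans the loci of Hoxa4, Hoxa5 and Hoxa6 in RefSeq, Hoxb3 that of Hoxb4, and Hoxd3 that of Hoxd4, so reads of one gene could reach a probe set named for another.

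Numbers 4 and 5 mark the neck and upper thorax, the level of the trachea and lung buds. Hoxa4 read 623 and 612 in wild type against 778 and 451 in the labelled knockout, so the wild-type values lay between the labelled knockout ones. Hoxb4 read 1564 and 1387 against 1367 and 1114, without overlap but with a log2 difference of -0.25 and an SE of 0.22. Hoxc4 read 1818 and 1471 against 1507 and 1491, and 3 of the 4 arrays were nearly alike. Its log2 difference was -0.12 with a 95% interval of -0.63 to 0.38.

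Hoxa5, the member best known from the trachea, read 1941 and 1494 in wild type against 1639 and 623 in the labelled knockout. The low value of labelled knockout replicate 2 set the difference, and the groups overlapped. The means were 1717 ± 316 and 1131 ± 718 (SD, n = 2), and the log2 difference was -0.74 with an SE of 0.44 and a limma adjusted p of 0.886. For replicate 1 alone the difference was -0.24, and for replicate 2 alone it was -1.24. These values come from an x_at probe set, which may bind other transcripts. Hoxb5, which acts in lung mesenchyme, read 590 and 564 against 508 and 629, with a log2 difference of -0.03 and a 95% interval of -0.75 to 0.69. Hoxc5 was near background at 184 and 119 against 89.7 and 121. It passed on every array with signals of 1.32 to 1.56 times the reference, and also lost that place with the 99th percentile as the reference.

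**Figure D2:**
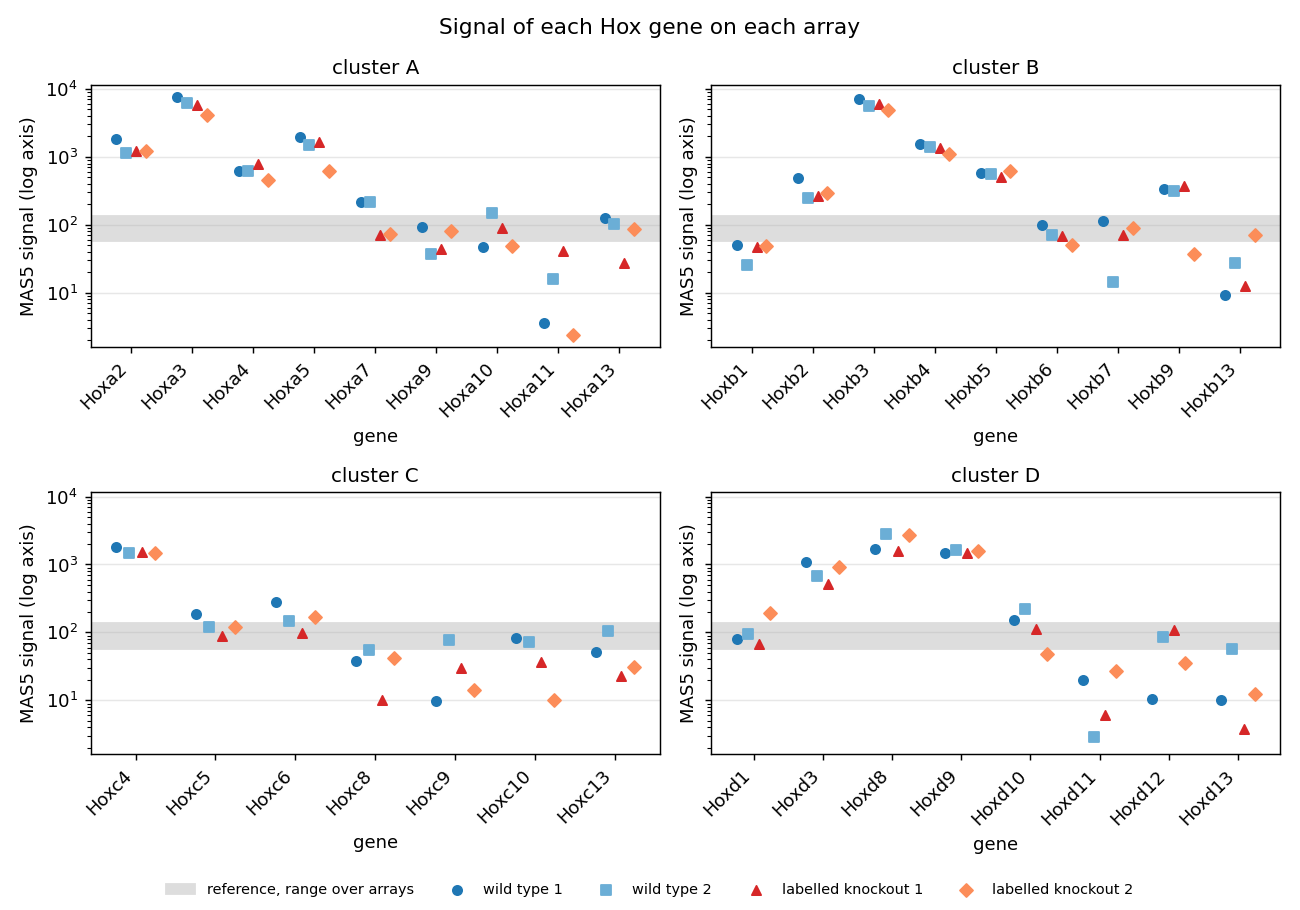
MAS5 signal (log axis) of each of the 33 Hox genes on each array, in 1 panel per cluster, with blue for wild type and red or orange for the labelled knockout. The grey band spans the olfactory receptor reference over the arrays, 57.5 to 136. Hoxb3 and Hoxd9, above the band, have 4 values close together, and values of genes in or below the band scatter widely.

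Hox genes numbered 6 to 9 pattern the thorax, and most were near or below background. Hoxc6 read 279 and 146 in wild type against 97.8 and 170 in the labelled knockout, above background on all arrays at 1.62 to 2.09 times the reference. Its other 2 probe sets passed on 2 arrays each. Hoxa7 was the member with the smallest unadjusted p, at 214 and 218 in wild type against 70.4 and 73.0 in the labelled knockout. Both groups were tight and apart, and the labelled knockout values were near the reference. Its log2 difference was -1.40 with an SE of 0.43, an unadjusted p of 0.0148 and a limma adjusted p of 0.886. Hoxb9 read 337 and 314 against 369 and 37.9, so 1 array, labelled knockout replicate 2, was apart from the other 3, and its log2 difference was -1.24 with an SE of 0.88. Hoxb6, Hoxb7 and Hoxa9 were above background on 1, 2 and 1 arrays, and Hoxc8 and Hoxc9 on 0.

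Hoxd8 and Hoxd9 were above background on all 4 arrays under every reference and probe set rule tried. Hoxd9 read 1480 and 1655 in wild type against 1478 and 1557 in the labelled knockout, at least 10.9 times the reference on every array. Its SE of 0.20 was the smallest among members, and its log2 difference was -0.04 with a 95% interval of -0.53 to 0.44. Hoxd8 read 1673 and 2786 against 1571 and 2696 on its brightest probe set, so its values followed the replicate number and not the genotype. A second Hoxd8 probe set, 1431099_at, read 1192 and 1201 against 1066 and 1132 and did not show this split. The spiked hybridisation controls also differed by replicate number, with geometric means of 4787 and 4744 for replicate 1 against 11598 and 14007 for replicate 2. Their part in the split of Hoxd8 was not tested.

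Genes numbered 10 to 13, known from the hind trunk, limbs and genital region, had no member above background on all 4 arrays. Hoxd10, a gene of the lumbar level, came nearest at 152 and 218 in wild type against 111 and 47.4 in the labelled knockout, above the reference on 3 arrays. Hoxc10 read 82.0 and 71.4 against 36.5 and 10.1, all below the reference. Hoxa13, a gene of digits and hindgut, read 125 and 103 against 27.4 and 86.6, and Hoxc13, a gene of hair and nails, read 51.6 and 103 against 22.9 and 31.4. In these 4 genes the groups did not overlap and the labelled knockout was lower, but most values were within the range of the reference or below it, where MAS5 values are noisy. They are 4 of the 10 members numbered 10 to 13. Among all genes read, like them, below the median level of all probe sets, 27.1% were lower without overlap. The log2 differences were -1.15 for Hoxd10, -1.32 for Hoxc10, -0.96 for Hoxa13 and -1.06 for Hoxc13, each with an SE of 0.51 to 0.57. With 1 array left out they ranged from -1.64 to -0.65 for Hoxd10, -1.83 to -0.82 for Hoxc10, -1.58 to -0.34 for Hoxa13 and -1.47 to -0.66 for Hoxc13. The remaining members numbered 10 to 13 were at or below the reference on at least 2 arrays, and Hoxa11, Hoxb13, Hoxd11 and Hoxd13 on all 4.

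No Hox gene passed the test between genotypes. With limma over all 18193 genes, 0 members had an adjusted p under 0.05, as did 0% of all genes, and the smallest adjusted p was 0.886. Unadjusted p-values under 0.05 were found for 2 members, Hoxa7 and Hoxc10, both lower, or 2 of 33 against 2.47% of all genes lower and 2.19% higher. The 95% intervals were wide, with a median SE among members of 0.51 against 0.30 over all genes. Without labelled knockout replicate 1 the call rule passed 1 member, Hoxa5 at a log2 difference of -1.43 and a limma adjusted p of 0.049, beside 0.748% of all genes. That setting leaves only labelled knockout replicate 2, the array with strong placental marker signal described below, assumed to vary like the wild-type arrays. Without labelled knockout replicate 2 instead, the log2 difference of Hoxa5 was -0.055. With 1 array left out, 19 of 33 members changed sign, 13 others moved by over 1.5 times, and Hoxa7 stayed between -1.43 and -1.38.

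**Figure D3:**
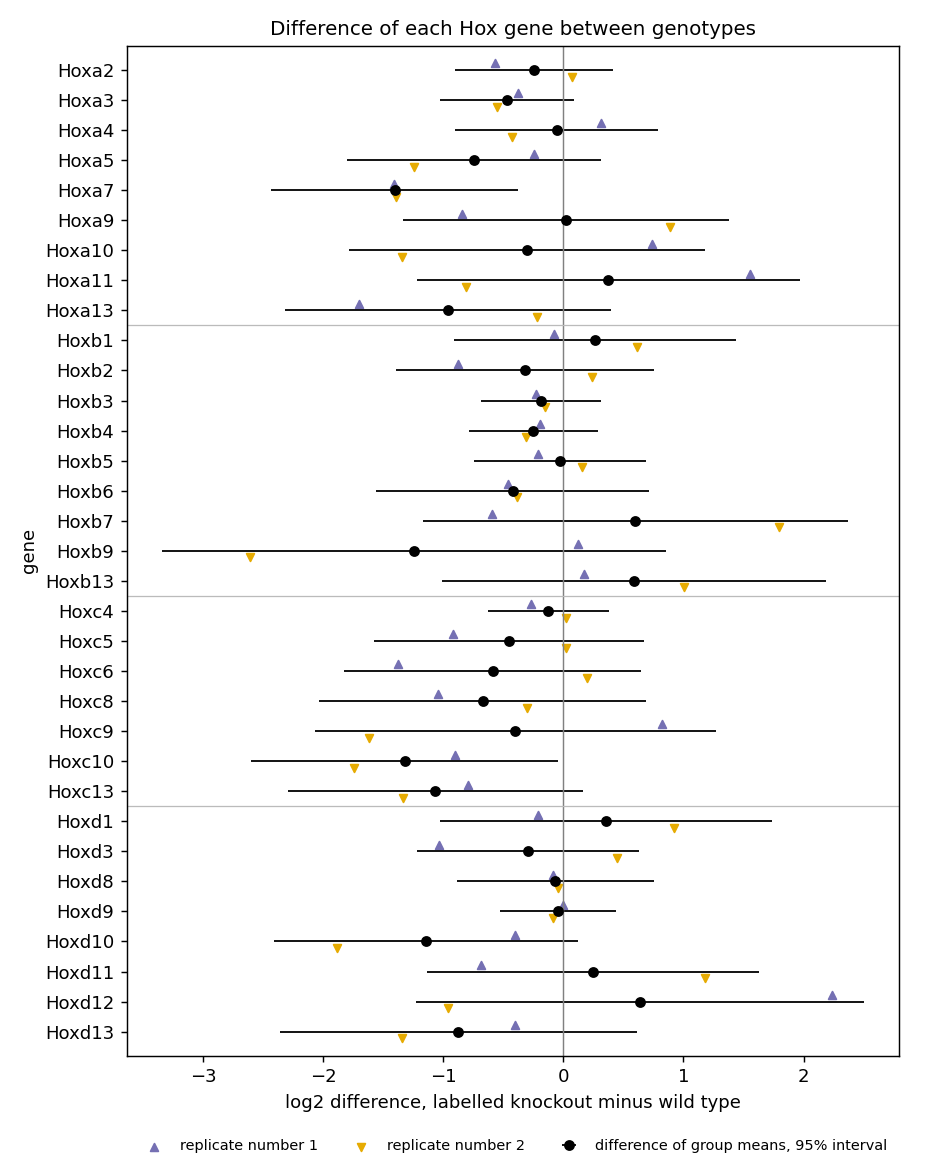
Log2 difference of each Hox gene, labelled knockout minus wild type, with its 95% interval from limma (black), and the differences between arrays of the same replicate number (triangles). Of 33 points 25 are below 0, and the interval includes 0 for every member other than Hoxa7 and Hoxc10.

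The members' differences were mostly below 0. The labelled knockout mean was lower for 25 of 33 members, or 75.8%, against 51.8% of all genes, and the median log2 difference was -0.30 against -0.02. The lower share moved with the scaling of the arrays: it was 57.6% after each array was centred on its median, against 28.4% of all genes, and 63.6% after quantile normalisation, against 42.2%. The centring added 0.23 to the difference of every gene and so moved the median of all genes to 0.21. Relative to the median of all genes, the members' median was -0.28 as deposited, which centring cannot change, and -0.16 after quantile normalisation. Within the replicate numbers the members' medians were -0.38 and -0.22. Leaving out wild-type replicate 1 gave a median of -0.17, and leaving out wild-type replicate 2 gave -0.45.

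Genes read at low signal differed from the others in this measure, and most members were read at low signal. Among all genes whose mean level was below the median of all probe sets, a signal of 397, the median log2 difference was -0.21 and 65.8% were lower. There 14 of 22 members were lower, or 63.6%, with a median of -0.41. Among all genes at or above that level the median was 0.04 and 44.1% were lower. Each of the 11 members at that level had a difference below 0, from -0.74 in Hoxa5 to -0.03 in Hoxb5, with a median of -0.19. In 6 of them, Hoxa4, Hoxb3, Hoxb5, Hoxc4, Hoxd8 and Hoxd9, the difference was smaller than the shift that centring gives every gene, so its sign depends on the scaling.

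Agreement between arrays was also uneven among members. The groups did not overlap for 8 of 33 members with the labelled knockout lower, or 24.2%, against 19.1% of all genes, and for 0 members with it higher, against 16.8%. Below the median level, 6 of 22 members were lower without overlap, or 27.3%, close to the 27.1% of all genes there. At or above it the count was 2 of 11 members, or 18.2%, against 14.6% of all genes. The 8 were Hoxa3, Hoxa7, Hoxa13, Hoxb4, Hoxb6, Hoxc10, Hoxc13 and Hoxd10. Lower within both replicate numbers were 14 of 33 members, against 31% of all genes, and higher within both was 1, Hoxb13, against 28.4%. By cluster, 7 of 9 members were lower in A, 6 of 9 in B, 7 of 7 in C and 5 of 8 in D, with medians of -0.30, -0.19, -0.59 and -0.06. By number, 11 of 13 were lower in 1 to 5, 8 of 10 in 6 to 9 and 6 of 10 in 10 to 13.

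Several members had more than 1 probe set, which gives a check within the array. The 33 members had 48 probe sets, and for 8 of the 11 members with several, the differences had the same sign. The probe sets of Hoxa5 gave -0.74 and -0.69, and the second one, 1448926_at, read 913 and 857 in wild type against 677 and 436 in the labelled knockout, without overlap. For Hoxa3, the probe sets 1427433_s_at, 1452421_at and 1429398_at gave -0.47, -0.68 and -0.56, and the dim 1431392_at gave 0.40 at signals of at most 115. Both 1427433_s_at and 1452421_at carry the same accession in the annotation, so they are not independent. The probe sets of Hoxb4 gave -0.25 and -0.55, but they too share an accession and are not independent. Those of Hoxb3, with different accessions, gave -0.19 and -0.41. For Hoxa4 the brightest gave -0.06 and 1420226_x_at, which may bind other transcripts, gave -0.77. The 3 of Hoxc6 ranged from -1.99 to -0.26, and the lowest came from a probe set that read 2.68 on labelled knockout replicate 2.

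**Figure D4:**
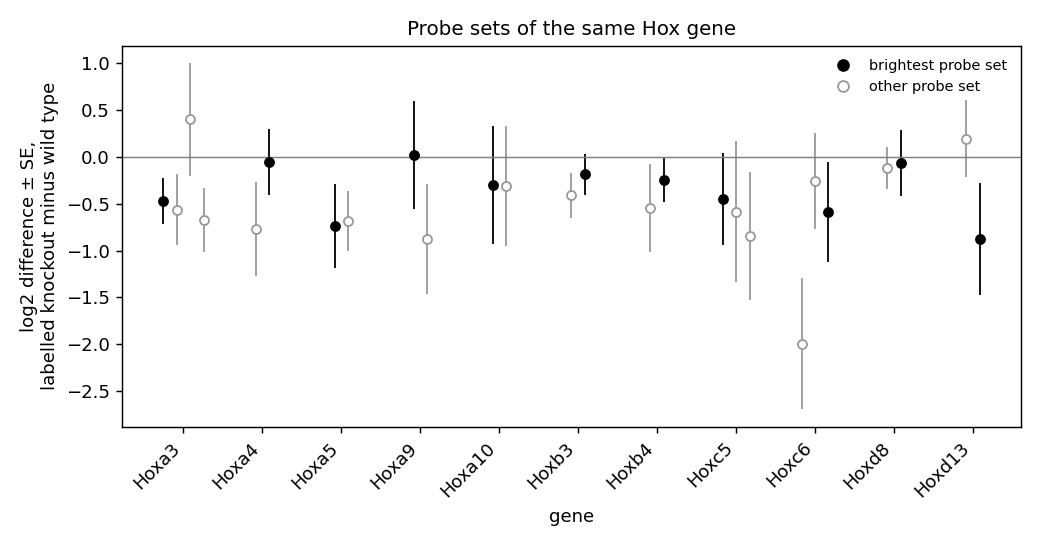
Log2 difference ± SE, labelled knockout minus wild type, of every probe set of the 11 Hox genes with more than 1. Filled points are the brightest probe set, used in the text. Signs agree in 8 genes, and the exceptions are Hoxa3, Hoxa9 and Hoxd13, each with a dim probe set on the other side of 0.

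Other transcripts of the clusters were read too. Hoxd3os1, an antisense transcript at Hoxd3, was above background on all 4 arrays with both of its probe sets, which read 464 and 371 in wild type against 425 and 118 in the labelled knockout, and 201 and 176 against 150 and 90.5. Whether the labelling kept strand was not given in the sources used here, so sense and antisense signals may not be separate. Hoxb5os was above background on 3 arrays at 234 and 174 against 49.1 and 182. Hoxa11os was below it on all 4. A probe set shared by Hoxd4 and Hoxd3, 1421537_at, read 313 and 203 against 181 and 204.

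Hox proteins bind DNA with cofactors of the Pbx, Meis and Pknox families, and these were read in the trachea. Of 9 cofactor genes 8 had a probe set named for them alone. All 8 were above background on all 4 arrays, against 75.7% of all genes. With limma 0 of 8 passed in either direction, against 0% of all genes, and 0 had an unadjusted p under 0.05. Their median log2 difference was -0.09, with 5 lower and 3 higher. Pbx2 and Pbx3 had log2 differences of -0.02 and 0.05, with SEs of 0.18 and 0.17. Pbx4 read 580 and 488 in wild type against 429 and 310 in the labelled knockout, and Pknox1 read 2490 and 2695 against 1979 and 2322, both without overlap. Meis1 read 2096 and 2094 against 2101 and 1170, with labelled knockout replicate 2 as the low array. Meis2, Meis3 and Pknox2 had -0.16, 0.09 and 0.10. Meis2 was also without overlap, but barely, at 5578 and 5575 against 4457 and 5572. Lower without overlap were thus 3 of 8 cofactors, against 19.1% of all genes.

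Regulators of the Hox clusters, such as Polycomb and Trithorax proteins, Cdx factors and retinoic acid enzymes and receptors, did not pass either. Of 33 measured of 35 listed, 0 passed in each direction with limma, 18 were higher and 15 lower, and the median was 0.04. Zbtb16, a transcription factor that acts with Hox genes in limb and axis patterning, had the smallest unadjusted p, 0.0196. It read 3322 and 3647 in wild type against 2177 and 686 in the labelled knockout, without overlap, on an x_at probe set, which may bind other transcripts. Cdx1 was dim at 19.4 and 37.7 against 101 and 62.4. Cdx2, a factor of the hind body that is also active in trophoblast, read 101 and 80.6 in wild type against 85.5 and 732 in the labelled knockout, so it was raised on 1 array. Phc1, a Polycomb subunit, read 2351 and 1858 against 2795 and 2440. Among 7 other transcription factors of the trachea, 0 passed, 5 were lower and the median was -0.50. Lower without overlap were 4 of the 7, Nkx2-1, Tbx4, Foxf1 and Sox2, against 19.1% of all genes. Nkx2-1, Tbx4, Tbx5, Foxf1 and Sox2 are also among the tracheal markers below, so the lists are not separate results. Sox2, a foregut factor, read 8218 and 6587 against 5179 and 4560, Foxf1, a factor of airway mesenchyme, read 8807 and 5752 against 5405 and 4709, and both were without overlap.

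Markers of other tissues differed between the arrays that carry these Hox values. In bulk tissue, fewer cells of a type and less RNA per cell cannot be told apart. The 10 measured placental genes of 13 listed summed to 720 and 792 in wild type against 512 and 106624 in the labelled knockout, with Prl8a9 at 29880 on labelled knockout replicate 2 and at most 4.43 on the other arrays. Of the 33 Hox genes, 10 were lowest on that array, or 30.3%, against 33.9% of all genes, and 12 were lowest on labelled knockout replicate 1, against 20.7% of all genes. Highest on wild-type replicate 1 were 16 of the 33, against 28.1% of all genes. Bone and vertebra markers (6 of 7 measured) summed to 1970 and 2231 in wild type against 4402 and 10874 in the labelled knockout. Pax1, which is also in the thymus list, carried much of this: without it, a choice made after seeing the data, the sums were 1374 and 1045 against 1340 and 7877, so only labelled knockout replicate 2 was high, with Ibsp, a bone matrix protein, at 5780. The 5 heart genes summed to 33712 and 14214 against 59817 and 1502. Wild-type arrays differed as well: salivary gland genes (6 of 7 measured) summed to 1166 and 40726 against 16692 and 9026. The 9 skin genes summed to 16311 and 41294 against 17145 and 28394. Wild-type replicate 2 was the highest array for both lists. The 6 lung genes summed to 9238 and 11967 against 6459 and 7956, with 5 of 6 lower in the labelled knockout, 2 within both replicate numbers. Over all genes 51.8% were lower, and 31% within both replicate numbers. Etv5 made up much of each lung sum, at 6953 and 5442 against 4981 and 6665. Sftpc, a surfactant gene, read 732 and 3967 against 320 and 426. Thyroid genes (4 of 6 measured) summed to 22941 and 30038 against 21212 and 16270, with 4 of 4 lower, 3 within both replicate numbers. Thymus genes (13 of 15 measured), of a tissue that needs Hoxa3, summed to 10500 and 22953 against 45045 and 26561. Of these 11 of 13 had a higher mean in the labelled knockout, but only 7 were higher within both replicate numbers. The 12 tracheal markers summed to 72547 and 86901 against 61579 and 81376, and 10 of the 12 had a lower mean where the knockout was labelled, 7 within both replicate numbers. Their median difference was -0.20 on the log2 scale. The part of these tissues in the Hox differences was not tested. With labelled knockout replicate 2 left out, the members' median log2 difference was -0.23, against 0.0002 over all genes. There 26 of 33 members were lower, against 50.0% of all genes. That setting rests on labelled knockout replicate 1 alone, the array with the highest heart and thymus sums, so it does not test the part of these tissues.

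**Figure D5:**
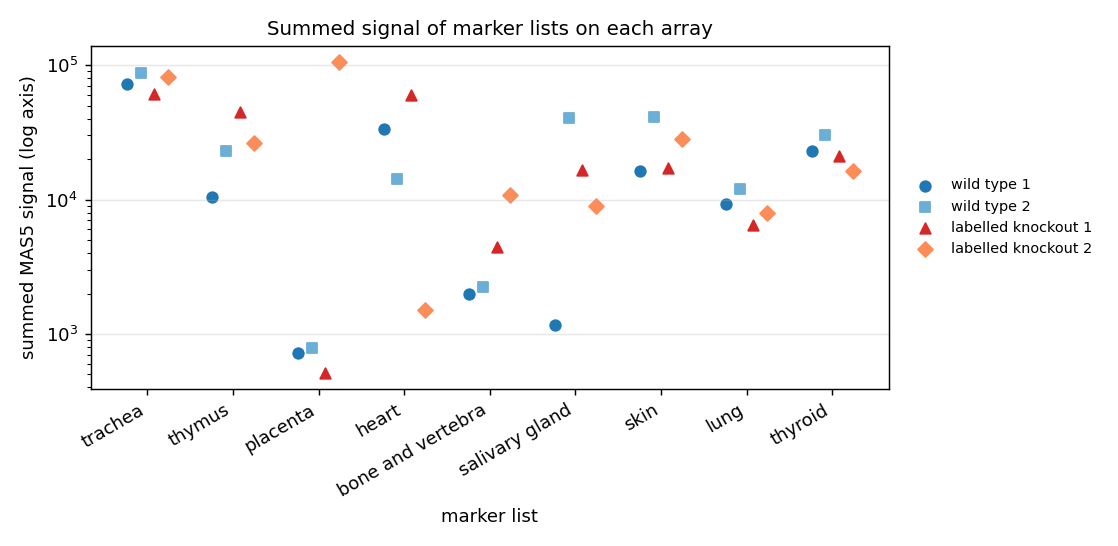
Summed MAS5 signal (log axis) of marker lists on each of the 4 arrays. Tracheal markers lie between 61579 and 86901, while the placental sum is 106624 on labelled knockout replicate 2 and at most 792 on the other arrays.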

How the data were processed

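The deposited values are MAS5 signals, intensity values on a linear scale, 1 per probe set and array, per the submitters' processing notes, whose MAS5 version is not given in the sources used here. Each array's mean after trimming 2% from each end was 1500, so the values looked scaled per array. Per the labels' protocols, 50 ng of Trizol RNA was amplified to cDNA with the Ovation Pico system, which can favour 3' ends.

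Of 45101 probe sets, 34945 had 1 gene in the platform annotation, 932 had several, 9160 had none listed and 64 were controls. Symbols of 34741 were updated through a RefSeq table of GRCm38.p6, used for names, gene order and upstream sequence. The brightest probe set of each gene, by mean log2(signal + 16), was used, without a level filter. limma 3.58.1 in R 4.3.3 (lmFit, eBayes with trend) was fitted to all 4 arrays with genotype as the only term, adjusted by Benjamini-Hochberg, threshold 0.05. The fit was tested on simulated data. The pseudocount understates differences of dim genes. Figures used matplotlib 3.10.9.

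Members and lists were chosen with earlier results of these data known. The named-gene rule gives in full the 8 members with the smallest unadjusted p, paralogs 4 and 5, and members numbered 9 to 13 above background. Other members were described at choice, 4 regulators by smallest p, and all cofactors. Lists of salivary gland (median log2 difference 0.32), skin (-0.34), skeletal muscle (0.06), thyroid (-0.61), lung (-0.94), esophagus (-0.08), neurons (0.25) and kidney and hind body (0.12) were also measured, with 0 genes called. The medians of salivary gland and skin hide the split between the wild-type arrays given above. Alternatives changed the pseudocount, filter, scaling, trend, probe set rule, array weights, replicate block, reference and arrays.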

Additional observations from a re-analysis of the deposited data

How the results depend on the processing

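Alternatives changed the pseudocount, filter, scaling, trend, probe set rule, array weights, replicate block and arrays; 11 members were run under all 13 and 22 under 12, since the filter left them out. No member passed with limma in those runs except Hoxa5 without labelled knockout replicate 1, so the count of members passed was 0 to 1 when each array was left out. The members' median log2 difference was -0.10 after quantile normalisation and -0.063 with arrays centred, and ranged from -0.45 to -0.17 with 1 array left out. Members lower were 21 to 26 with 1 array left out, and 11 of the 11 members left by a filter at the median level. Above background were 12 to 18 members over the alternative references and rules, and 14 to 17 with 1 array left out.

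The direction of 13 members, all lower, held under every alternative they were run under, 3 of them under 13 and 10 under 12. The filter, trend, array weights and replicate block left every difference unchanged, so they could not turn a direction and add nothing to this count. The other 20 turned under at least 1, of which 1, Hoxb3, only with centring. Quantile normalisation turned Hoxa4 (0.11), Hoxa10 (0.069), Hoxb5 (0.13) and Hoxc9 (0.011). Centring adds 0.23 to every gene, so a turn there says only that the difference lay less than 0.23 below 0, as for Hoxa4 (0.18), Hoxb3 (0.045), Hoxb5 (0.20), Hoxc4 (0.11), Hoxd8 (0.16) and Hoxd9 (0.19). The mean of all probe sets turned Hoxa9 (-0.43). Leaving out 1 array turned others, with ranges over the 4 arrays of -0.58 to 0.083 for Hoxa2, -0.44 to 0.33 for Hoxa4, -0.998 to 0.39 for Hoxa10, -0.45 to 1.20 for Hoxa11, -0.49 to 0.53 for Hoxa9, -0.071 to 0.60 for Hoxb1, -0.22 to 1.39 for Hoxb13, -0.81 to 0.17 for Hoxb2, -0.18 to 0.12 for Hoxb5, -0.45 to 1.65 for Hoxb7, -2.66 to 0.17 for Hoxb9, -0.28 to 0.027 for Hoxc4, -1.31 to 0.51 for Hoxc9, -0.31 to 1.02 for Hoxd1, -0.23 to 0.72 for Hoxd11, -0.32 to 1.60 for Hoxd12, -0.71 to 0.12 for Hoxd3, -0.45 to 0.32 for Hoxd8 and -0.12 to 0.035 for Hoxd9.

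The replicate numbers share only a number in the labels: deviations of same-numbered arrays from their group means correlated at 0.15 over all genes and 0.32 over those at or above the median level. With the replicate number as a block, 0 members and 0 genes passed. The members' median stayed at -0.30, since the block leaves every difference as it was. Differences near or below the reference are limited by signal over background.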
